A study of Homo sapiens with 6 samples.

Results

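The genes described here encode the plasminogen activators, their inhibitors and the receptors that hold activator or plasminogen at the cell surface: PLAT, PLAU, PLAUR, PLGRKT, SERPINE2 and SERPINB2. They were taken by symbol from the protein-coding genes of the expression table, where all 6 were found among 19951 protein-coding genes and 58735 genes in all. The 6 were chosen by their measured values in the comparison reported below, with earlier results of these data known. Their differences are therefore given as a description, with no test of their own.

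Plasmin is a serine protease that dissolves fibrin, cuts matrix proteins and activates growth factors and other proteases. It is cut from the circulating zymogen plasminogen by tissue plasminogen activator, which acts best on fibrin, or by urokinase, which acts mostly while bound to its receptor uPAR on the cell surface. Inhibitors of the serpin family trap the activators in stable complexes, and cancers of epithelial origin are often studied for urokinase, uPAR and these serpins, because the system acts in tissue invasion.

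Gene expression was measured by RNA sequencing in NCI-N87, an established human gastric cancer cell line. One group, shNC, had received lentivirus with the negative control, described by the study as the empty pSIH-H1-puro vector, and the other, shScamp1, had received lentivirus with a single shRNA against SCAMP1, a membrane protein of the endocytic and secretory routes. Both groups carried the vector and were made into stable populations with 2 μg/ml puromycin, so the vector and the selection were common to all libraries. With an empty vector as control, only shScamp1 carried an shRNA. Effects of the shRNA other than on SCAMP1 cannot be told apart from those of reduced SCAMP1. There were 3 libraries in each group, labelled as biological replicates, with no word on whether they came from separate infections, so that the spread between libraries may be partly technical.

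Values are FPKM, fragments per kilobase of gene length scaled to sequencing depth, as deposited. Reads on genes numbered 15064905 to 15988700 in the shNC libraries and 14311769 to 14667628 in the shScamp1 libraries. Mitochondrial genes took 9.21% of the reads in shScamp1 replicate 2 and 6.09% to 6.78% in the other libraries. SCAMP1, the targeted gene, measured 12.6, 12.1 and 11.5 FPKM in shNC and 1.70, 1.37 and 1.99 FPKM in shScamp1, a log2 fold change of -2.78 (SE 0.14). Of 10 epithelial marker genes, 9 passed the filter on low values. Only CLDN18, a stomach tight junction gene, was near 0, with at most 1 read in any library. The 10 markers summed to 4453 to 4672 FPKM in shNC and 8179 to 9006 FPKM in shScamp1, most of it from the keratins KRT8, KRT18 and KRT19. KRT18 (875 and 1999.9 FPKM) and CEACAM6 (151 and 387 FPKM) were called higher and VIL1 (5.32 and 1.82 FPKM) lower, by the rule given below. These are 3 of the 9 tested, beside 3.16% of all genes tested. At a limma adjusted p under 0.05 alone, 6 of the 9 were higher and 1 lower, beside 14.0% of all genes tested. EPCAM and KRT20 had log2 fold changes of -0.05 and -0.04. Fibroblast markers summed to 0.554 to 0.700 FPKM in shNC and 0.561 to 0.773 FPKM in shScamp1, with 3 of 7 at 0. Endothelial markers summed to 0.324 to 0.561 and 0.586 to 0.832 FPKM, and leukocyte markers to 1.76 to 2.01 and 1.48 to 2.86 FPKM, in the same order.

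Upstream sequence is shown first for the inhibitors, because SERPINB2 and SERPINE2 stood in opposite directions between the groups, and for the stretch of the PLAUR window that shares a motif with SERPINB2. SERPINE2 was not called, and whether any motif bears on these directions was not tested. RefSeq windows on GRCh38.p14, each from 250 bases before to 50 bases after an annotated start, were found for 5 of the 6 genes, 7 windows in all. PLAT had no window, so its upstream sequence was not searched. Capitals mark matches to AP-1 (TGANTCA), the E-box (CACGTG) and the TATA box (TATAAA), searched on both strands, and each line runs 5′ to 3′ on the strand of the gene. The SERPINB2 line covers chr18:63887455-63887699 (plus strand), the SERPINE2 line chr2:224031479-224031728 (minus strand) and the PLAUR line chr19:43670338-43670367 (minus strand). Each line is upstream of a RefSeq start but lies within the span of its gene given below. Which starts these cells use was not measured.
SERPINB2: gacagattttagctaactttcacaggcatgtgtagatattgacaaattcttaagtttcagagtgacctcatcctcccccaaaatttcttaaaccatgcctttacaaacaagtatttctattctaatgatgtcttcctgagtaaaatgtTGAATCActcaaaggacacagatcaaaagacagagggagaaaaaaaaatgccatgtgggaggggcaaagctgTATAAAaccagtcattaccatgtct
SERPINE2: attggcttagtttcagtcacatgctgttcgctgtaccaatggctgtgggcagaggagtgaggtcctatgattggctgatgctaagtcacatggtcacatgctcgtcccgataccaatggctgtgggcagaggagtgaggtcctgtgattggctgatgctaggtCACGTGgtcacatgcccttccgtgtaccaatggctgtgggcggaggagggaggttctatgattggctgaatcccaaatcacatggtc
PLAUR: atcacaactccaTGAGTCAgggccgagcca
In SERPINB2 with the start base as position 0, an AP-1 match began at position -102 from the annotated start and a TATA box at -30, and the 250 bases before the start were 37.2% G and C. SERPINE2 has a second window, not printed and nearer the 5′ end of the annotated gene, with a G and C content of 75.2%, and the window printed here had 53.2%. In the printed SERPINE2 window the E-box match began at -87, a stretch of 33 bases occurred 2 times, from -217 and from -140, and neither an AP-1 nor a TATA match was found.

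Among all 35116 windows of 300 bases in the RefSeq set, 7.71% held an AP-1 match, 11.5% a TATA box and 7.26% an E-box. The AP-1 match of PLAUR began at -186 from its annotated start and lay within exons of PLAUR in GENCODE 29. The GC box (GGGCGG), held by 45.0% of all windows, was found in both SERPINE2 windows, in PLGRKT and in 1 of the 2 PLAU windows, where it occurred 3 times. The cAMP response element (TGACGTCA), held by 1.85% of all windows, was found in none of the 7 windows, which leave out PLAT. A match of letters is not a measured binding site.

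PLAT, which encodes tissue plasminogen activator (ENSG00000104368, hg38 chromosome 8, 42175233 to 42207724, minus strand), differed most. It measured 1.01, 1.06 and 0.871 FPKM in the shNC libraries, from 106, 117 and 89 reads, and 10.1, 8.54 and 9.97 FPKM in the shScamp1 libraries, from 976, 774 and 965 reads. Every shScamp1 library lay far above every shNC library. The means were 0.981 ± 0.0986 FPKM (SD, n = 3) and 9.54 ± 0.862 FPKM (SD, n = 3), a ratio of 9.72, and the fitted log2 fold change of FPKM + 0.1 was 3.16 (SE 0.11). Because the RNA was of whole populations, more cells with the transcript and more transcript per cell cannot be told apart.

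A gene was called when limma gave a Benjamini-Hochberg adjusted p under 0.05 and the absolute log2 fold change was above 1, over the 15556 genes that averaged 0.5 FPKM or more in the 6 libraries. Of these, 492 were called (3.16%), 376 higher in shScamp1 (2.42%) and 116 lower (0.746%), and their median log2 fold change was -0.02. PLAT was called, and its log2 fold change ranked 18 among the 15556 genes and 3 among the 11529 protein-coding ones. With each library left out in turn, the PLAT value ran from 3.08 to 3.23 and the gene stayed called in 6 of 6 fits. Among tested protein-coding genes, its level stood at percentile 8.28 in shNC and 62.6 in shScamp1. So in the control population PLAT was among the lowest of the genes above the filter, and in the shScamp1 population it was above the median gene.

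PLAU, which encodes urokinase (ENSG00000122861, hg38 chromosome 10, 73909177 to 73917497, plus strand), was close to the limit of detection. It had 0, 6 and 6 reads in shNC and 18, 6 and 22 reads in shScamp1, or 0, 0.122 and 0.132 FPKM and 0.418, 0.149 and 0.510 FPKM. The 0 in shNC replicate 1 allows up to 3 reads, or 0.0641 FPKM, as counting error. The totals were 12 and 46 reads, the ranges did not overlap in FPKM, and shScamp1 replicate 2 lay next to the shNC libraries with the same 6 reads as shNC replicates 2 and 3. The means were 0.0846 ± 0.0734 and 0.359 ± 0.188 FPKM (SD, n = 3 each). With a mean of 0.222 FPKM over the 6 libraries, PLAU was under the filter and was not tested. In a fit with no filter its log2 fold change was 1.31 (SE 0.52), and with each library left out in turn it ran from 0.92 to 1.70. A gene on the opposite strand, C10orf55, overlaps PLAU and held 0 to 2 reads, and the strand setting of the counting was not given in the sources used here.

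The transcripts of the activators were thus unequal in level: in shScamp1, PLAT stood at 9.54 FPKM and PLAU at 0.359 FPKM on a scale per gene length. In shNC, PLAT lay under both receptors, PLGRKT and PLAUR, and overlapped SERPINE2. In shScamp1 it stood highest of the 6.

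**Figure D1:**
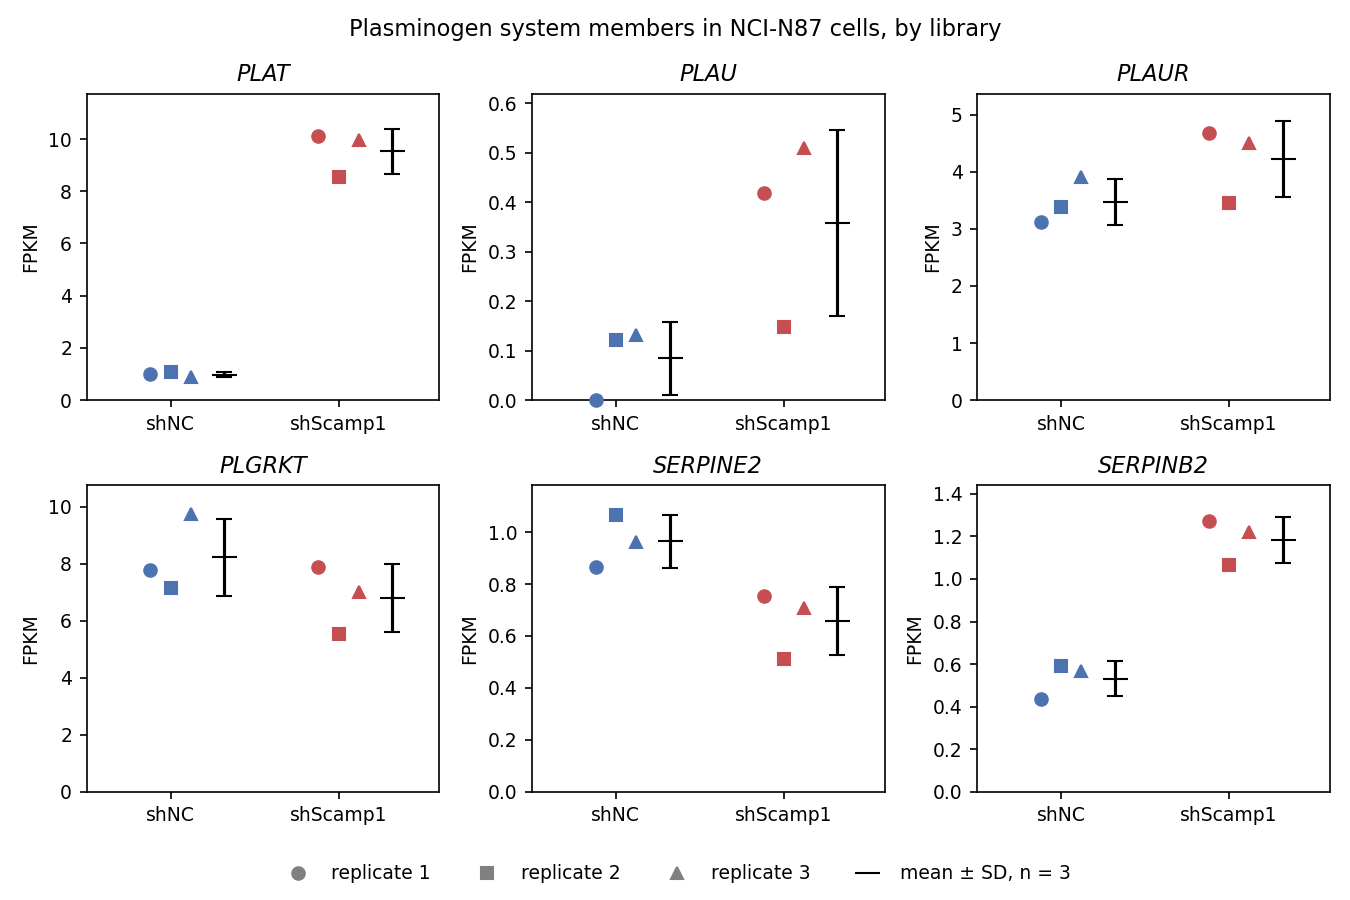
FPKM of the 6 genes (vertical axes, each from 0 and on its own scale) in the shNC and shScamp1 libraries, with a marker per replicate and the mean ± SD (n = 3) beside each group. PLAT at 8.54 FPKM or more and SERPINB2 at 1.06 FPKM or more in shScamp1 lie above all shNC libraries, SERPINE2 lies below them, and PLAUR and PLGRKT overlap.

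PLAUR encodes uPAR, the receptor that holds urokinase at the cell surface by a lipid anchor (ENSG00000011422, hg38 chromosome 19, 43646095 to 43670547, minus strand). It measured 3.11, 3.38 and 3.91 FPKM in shNC, from 220, 251 and 269 reads, and 4.69, 3.46 and 4.51 FPKM in shScamp1, from 305, 211 and 294 reads. The groups overlapped, since shScamp1 replicate 2 lay within the shNC range while the other shScamp1 libraries lay above it. The means were 3.47 ± 0.404 and 4.22 ± 0.663 FPKM (SD, n = 3 each). The log2 fold change was 0.27 (SE 0.15), and PLAUR was not called. Without shScamp1 replicate 2 the log2 fold change was 0.40 (SE 0.11), with a limma adjusted p under 0.05 but still under the fold threshold. PLAUR was called in 0 of 6 fits with a library left out.

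PLGRKT encodes a transmembrane receptor for plasminogen with a lysine at its end, to which plasminogen binds (ENSG00000107020, hg38 chromosome 9, 5357973 to 5437878, minus strand). It measured 7.77, 7.15 and 9.76 FPKM in shNC, from 184, 178 and 225 reads, and 7.89, 5.53 and 7.00 FPKM in shScamp1, from 172, 113 and 153 reads. The groups overlapped, with shNC replicate 3 highest and shScamp1 replicate 2 lowest. The means were 8.23 ± 1.36 and 6.81 ± 1.19 FPKM (SD, n = 3 each), the log2 fold change was -0.27 (SE 0.17), and PLGRKT was not called. Its value ran from -0.38 to -0.13 with each library left out in turn.

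The receptors differed in opposite directions by amounts near their spread, and their ratio was steadier than either. PLAUR to PLGRKT, as a ratio of FPKM within a library, was 0.401, 0.472 and 0.400 in shNC and 0.594, 0.625 and 0.644 in shScamp1. The means were 0.424 ± 0.0415 and 0.621 ± 0.0251 (SD, n = 3 each), and the groups did not overlap. Of all single genes tested, 41.4% did not overlap either. How often ratios of other gene pairs separate the groups was not computed, so the separation is given as a description only. A ratio within a library does not depend on the scaling between libraries, and it shows unequal change only. Both receptors were at their lowest shScamp1 level in replicate 2, yet that library lay between the others in the ratio.

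SERPINE2 encodes protease nexin-1, a secreted serpin that inhibits thrombin, urokinase and tissue plasminogen activator (ENSG00000135919, hg38 chromosome 2, 223975112 to 224039319, minus strand). It measured 0.865, 1.07 and 0.961 FPKM in shNC, from 122, 158 and 132 reads, and 0.755, 0.509 and 0.707 FPKM in shScamp1, from 98, 62 and 92 reads. Every shScamp1 library lay under every shNC library, with a gap between 0.755 and 0.865 FPKM. The means were 0.964 ± 0.101 and 0.657 ± 0.130 FPKM (SD, n = 3 each), 31.9% lower in shScamp1. The log2 fold change was -0.50 (SE 0.22), SERPINE2 was not called, and without shScamp1 replicate 2 the value was -0.35.

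SERPINB2 encodes plasminogen activator inhibitor type 2, which is found mostly inside the cell and in part secreted (ENSG00000197632, hg38 chromosome 18, 63871692 to 63903890, plus strand). It measured 0.436, 0.590 and 0.565 FPKM in shNC, from 19, 27 and 24 reads, and 1.27, 1.06 and 1.22 FPKM in shScamp1, from 51, 40 and 49 reads. Every shScamp1 library lay above every shNC library. The means were 0.530 ± 0.0826 and 1.18 ± 0.108 FPKM (SD, n = 3 each), a ratio of 2.23, and the log2 fold change was 1.03 (SE 0.20).

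SERPINB2 was called, but just above the fold threshold, and it stayed called in 1 of 6 fits with a library left out, the one without shScamp1 replicate 2. Its value in the 6 fits ran from 0.92 to 1.10. In every fit that lost the call, the limma adjusted p was not under 0.05. That held also where the value was above 1: without shNC replicate 2 (1.10), shNC replicate 3 (1.075) or shScamp1 replicate 3 (1.01). SERPINB10, a neighbour of the same serpin clade, overlaps SERPINB2 on the same strand and held 0 to 5 reads.

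In FPKM the inhibitors exchanged rank between the groups. SERPINB2 to SERPINE2 was 0.504, 0.553 and 0.588 in shNC and 1.68, 2.09 and 1.72 in shScamp1, with means of 0.548 ± 0.0424 and 1.83 ± 0.223 (SD, n = 3 each). Thus SERPINE2 was the more abundant in each shNC library and SERPINB2 in each shScamp1 library, on a scale per gene length. In reads SERPINE2 stayed above SERPINB2 in shScamp1 too, with 98, 62 and 92 against 51, 40 and 49. The exchange therefore rests on the gene lengths used, 8891 bases for SERPINE2 and 2748 bases for SERPINB2. The sum of SERPINE2 and SERPINB2 was 1.30, 1.66 and 1.53 FPKM in shNC and 2.03, 1.57 and 1.93 FPKM in shScamp1, and the groups overlapped. PLAT to that sum was 0.776, 0.641 and 0.570 in shNC and 4.99, 5.43 and 5.17 in shScamp1, with means of 0.662 ± 0.105 and 5.20 ± 0.224 (SD, n = 3 each). So PLAT transcript was under the sum of these 2 inhibitor transcripts in every shNC library and above it in every shScamp1 library. With SERPINI1, an inhibitor of tissue plasminogen activator that is described below and was more abundant than either, added to the sum, the ratio was 0.135, 0.139 and 0.121 in shNC and 1.22, 1.11 and 1.21 in shScamp1, with means of 0.132 ± 0.00923 and 1.18 ± 0.0604 (SD, n = 3 each). These are transcript ratios, and protein and activity were not measured.

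**Figure D2:**
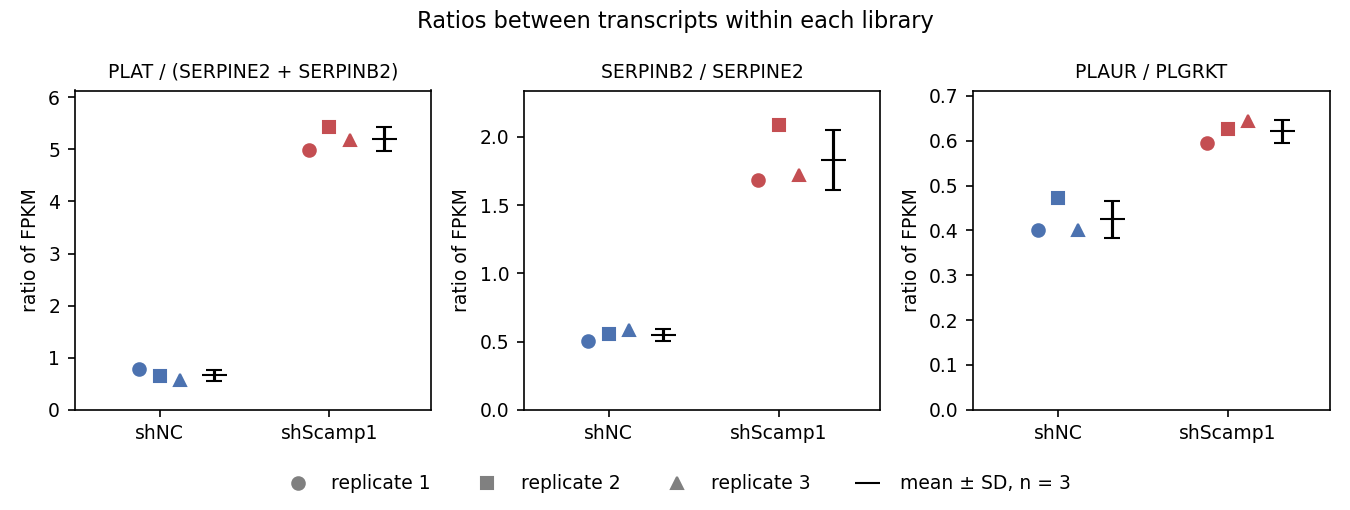
Ratios of FPKM within each library (vertical axes from 0) for PLAT to the sum of SERPINE2 and SERPINB2, SERPINB2 to SERPINE2, and PLAUR to PLGRKT, with a marker per replicate and the mean ± SD (n = 3) for shNC and shScamp1. In all 3 panels the shScamp1 libraries lie above the shNC libraries, most widely for PLAT to SERPINE2 plus SERPINB2, 0.662 against 5.20; SERPINI1 is not in that sum.

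Of the 6 genes, 5 were tested, 2 were called, PLAT and SERPINB2, both higher in shScamp1, and none was called lower. Those 2 were also the ones with an adjusted p under 0.05 from limma, which 14.0% of the genes tested had. PLAT, SERPINE2 and SERPINB2, 3 of the 5 tested, did not overlap between the groups, as did 41.4% of all genes tested. The genes were chosen with this contrast known, so nothing is read from these counts. In shNC the order by mean FPKM was PLGRKT, PLAUR, PLAT, SERPINE2, SERPINB2 and PLAU, and PLAT and SERPINE2, at 0.981 and 0.964 FPKM, overlapped. In shScamp1 it was PLAT, PLGRKT, PLAUR, SERPINB2, SERPINE2 and PLAU, and only SERPINE2 and PLAU overlapped. Both orders are per gene length. In total reads PLAUR stood above PLGRKT, with 740 against 587 in shNC and 810 against 438 in shScamp1. SERPINE2 stood above PLAT in shNC, with 412 against 312 reads.

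The shScamp1 replicate 2 library was the lowest of its group for all 6 genes. It was the lowest of its group for 44.4% of all genes tested, against 34.0% for replicate 1 and 21.6% for replicate 3. Its larger mitochondrial share moved with this, and the part of that share in the results was not tested. Without this library PLAT stood at 3.23, SERPINB2 at 1.10, SERPINE2 at -0.35, PLAUR at 0.40 and PLGRKT at -0.13 on the log2 scale. The 2 called genes were thus as large without it, while SERPINE2 and PLGRKT moved toward 0 and PLAUR away from it.

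The wider system was described with 8 lists of 79 genes from general knowledge of the pathway, of which 32 were tested. The lists were written with earlier results of these data known, so their counts are given as a description. Of these 32, 2 were called, 1 higher and 1 lower (6.25%, against 3.16% of all genes tested), and at an adjusted p under 0.05 alone 8 were higher and 5 lower, 13 of 32 beside 14.0% of all genes tested. Their median log2 fold change was 0.03, beside -0.02 over all genes tested. All 32 were protein-coding, as were 11529 of the 15556 genes tested. The shares over protein-coding genes alone were not computed. The called genes were both clade B serpins and not part of the activation cascade itself.

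The transcript of plasminogen itself was all but absent, and the protein was not measured. PLG had 2 reads in shNC replicate 3 and was listed at 0 in the other 5 libraries, and none of the 7 genes for plasminogen, plasmin inhibitors and fibrinolysis regulators passed the filter. The 7 summed to at most 0.681 FPKM in any library. Of the 3 other inhibitors of the activators, the 1 tested was SERPINI1, which encodes neuroserpin, an inhibitor of tissue plasminogen activator, with 5.94 FPKM in shNC and 6.21 FPKM in shScamp1 and a log2 fold change of 0.07. SERPINI1 was therefore more abundant per length than SERPINE2 or SERPINB2 in both groups.

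Among 8 plasminogen-binding proteins, 6 were tested and none was called, with a median of -0.16. KRT8, a keratin of simple epithelia that also binds plasminogen at the surface of carcinoma cells, was higher at 3002 against 1534 FPKM, a log2 fold change of 0.97 (SE 0.10, limma adjusted p = 0.00241), just under the fold threshold. KRT8 is also 1 of the 3 keratins that make up most of the summed epithelial markers. CKAP4, a membrane protein that binds tissue plasminogen activator, was lower by limma, with a log2 fold change of -0.31 and an adjusted p of 0.0420. ENO1, ANXA2, S100A10 and HMGB1 did not reach an adjusted p under 0.05, with log2 fold changes from -0.44 to -0.12.

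Of 18 uPAR partners and clearance receptors, 9 were tested and none was called, with a median of 0.38. At an adjusted p under 0.05 from limma, 4 were higher and none lower, beside 14.0% of all genes tested in both directions. They were the integrin subunits ITGA3 (log2 fold change 0.65, adjusted p = 0.0170), ITGB1 (0.44, adjusted p = 0.00722) and ITGAV (0.38, adjusted p = 0.0217), and SORL1, a sorting receptor that binds uPAR and activator complexes (0.69, adjusted p = 0.0425). LRP1, the endocytic receptor that clears activator and inhibitor complexes, measured 7.46, 7.02 and 7.94 FPKM in shNC and 7.70, 14.2 and 8.57 FPKM in shScamp1. Of the shScamp1 libraries replicate 2 stood apart, and LRP1, with a log2 fold change of 0.39, did not pass the test. The formyl peptide receptors FPR1, FPR2 and FPR3, partners of uPAR in leukocytes, were listed at 0.

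Of 6 proteases that can activate pro-urokinase, 3 were tested and none was called. ST14, the membrane protease matriptase, was higher with a log2 fold change of 0.40 (limma adjusted p = 0.0122), and CTSB, the lysosomal protease cathepsin B, was lower with -0.33 (adjusted p = 0.0160). Of 12 substrates of plasmin or its activators, 2 were tested and none was called. PDGFC, a growth factor that tissue plasminogen activator cuts into its active form, was lower by limma, with a log2 fold change of -0.62 and an adjusted p of 0.0477. FN1, the matrix protein fibronectin, had 0.63 and did not pass the test.

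Of 13 other clade B and clade E serpins, 6 were tested and 2 called, in opposite directions, with a median of 0.09. SERPINB7 was higher, with 0.215, 0.432 and 0.319 FPKM in shNC and 1.77, 1.41 and 1.30 FPKM in shScamp1, a log2 fold change of 1.94 (SE 0.28, limma adjusted p = 0.00788). SERPINB3, squamous cell carcinoma antigen, was lower, with 1.92, 2.03 and 2.15 FPKM in shNC and 0.193, 0.0411 and 0.154 FPKM in shScamp1 from 5, 1 and 4 reads, a log2 fold change of -3.28 (SE 0.35, limma adjusted p = 0.00261). Both stayed called with each library left out, but with a pseudocount of 1 SERPINB7 had 0.91 and lost its call, and SERPINB3, still called, had -1.43. SERPINB3 has a near-identical copy, SERPINB4, at 0.462 and 0.0242 FPKM, so reads could be split between them and the value of either is uncertain. SERPINB5, which encodes maspin, was higher with 0.48 and SERPINB6, an inhibitor of intracellular proteases, was lower with -0.55, at limma adjusted p-values of 0.00808 and 0.00601. Of 12 genes with the Ly6 domain found in uPAR, 5 were tested and none was called, with a median of 0.19. LYPD2 had the highest log2 fold change of that list, from 0.423 to 1.21 FPKM, and did not pass the test.

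**Figure D3:**
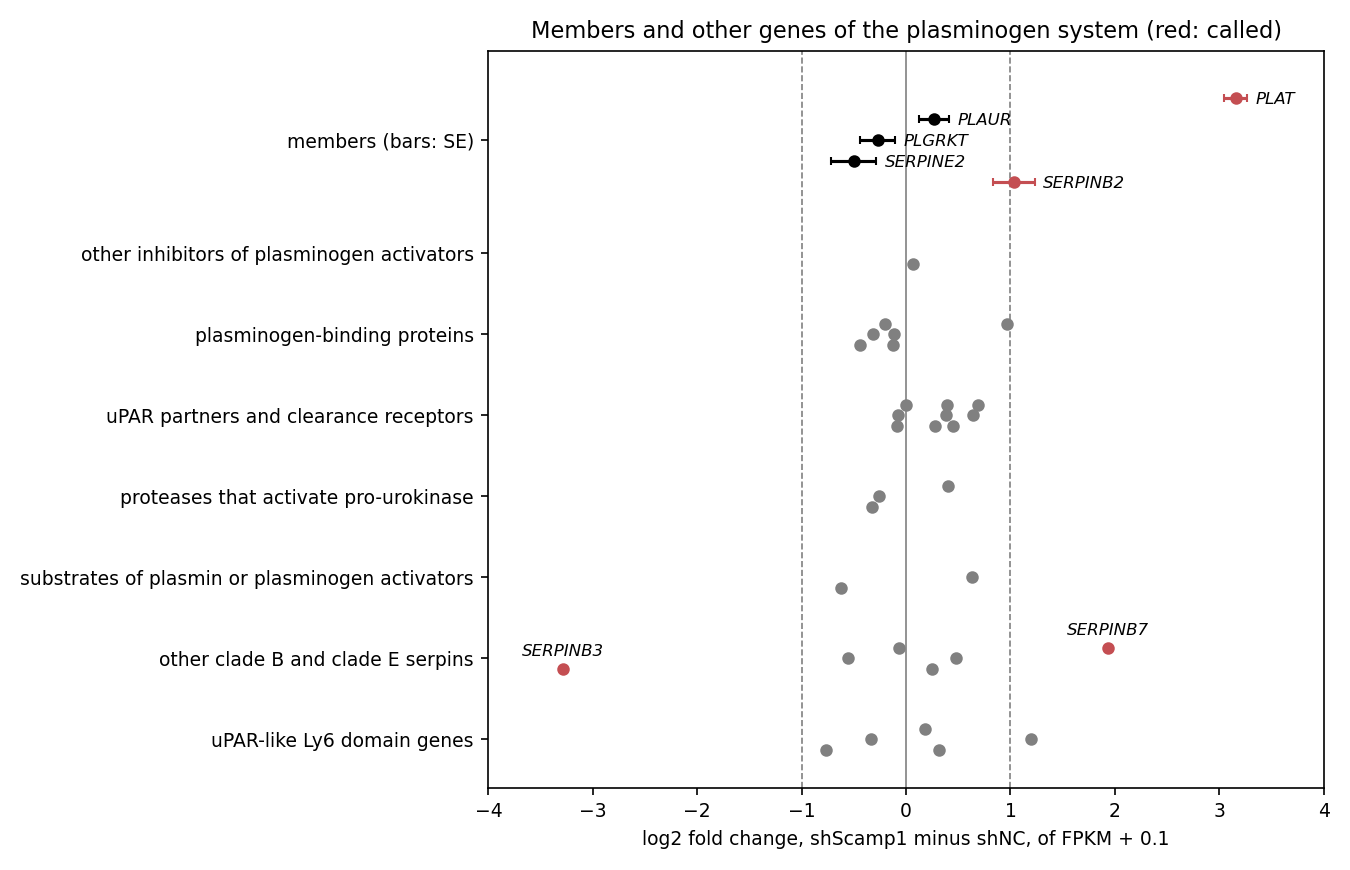
Log2 fold change of FPKM + 0.1, shScamp1 minus shNC (horizontal axis), of the 5 tested genes of the set (top row, bars are SE) and of the tested genes of the pathway lists (dots), with called genes in red and dashed lines at an absolute value of 1. PLAT at 3.16, SERPINB2 at 1.03, SERPINB7 at 1.94 and SERPINB3 at -3.28 are red, and the other pathway genes are not called.

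Position on the chromosome was not used to choose the genes. Within 250 kb of the 6 there were 58 other protein-coding genes, 37 of them tested and 3 called, 2 higher and 1 lower, and 7 had an adjusted p under 0.05, beside 3.16% called and 14.0% with such a p among all genes tested. None of the 6 tested neighbours of PLAT was called. The one with an adjusted p under 0.05 was SLC20A2, a phosphate transporter gene, at 20.8 and 40.3 FPKM and 0.96 (limma adjusted p = 0.00061), whose annotated start lies 334.2 kb from that of PLAT. The nearest tested starts around PLAT were those of AP3M2, IKBKB and POLB, with log2 fold changes of -0.14, 0.05 and 0.43, well under the 3.16 of PLAT.

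SERPINB2 lies in a cluster of clade B serpins, and of its 3 tested neighbours 2 were called, in opposite directions. SERPINB7, with its start 118.8 kb away, was higher like SERPINB2, SERPINB3, 209.7 kb away, was lower, and SERPINB8, 98.2 kb away on the other side, had 0.24 and did not pass the test. Beside PLGRKT the start of CD274, which encodes the immune checkpoint ligand PD-L1, lies 12.6 kb away on the opposite strand. CD274 was called higher, at 1.06 and 2.25 FPKM with a log2 fold change of 1.04 (SE 0.16, limma adjusted p = 0.0113), while PLGRKT had -0.27. CD274 lost its call in 3 of 6 fits with a library left out, those without shNC replicate 1, shNC replicate 3 or shScamp1 replicate 3, and its value over the 6 fits ran from 0.90 to 1.16. It also lost its call in 3 of 10 alternatives, with a pseudocount of 1, where it had 0.67, and with the libraries scaled by total reads or by reads outside mitochondrial genes. None of the 8 tested neighbours of PLAU, the 14 of PLAUR and the 3 of SERPINE2 was called. With the window widened to 1 Mb, 4 of 85 tested neighbours were called.

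**Figure D4:**
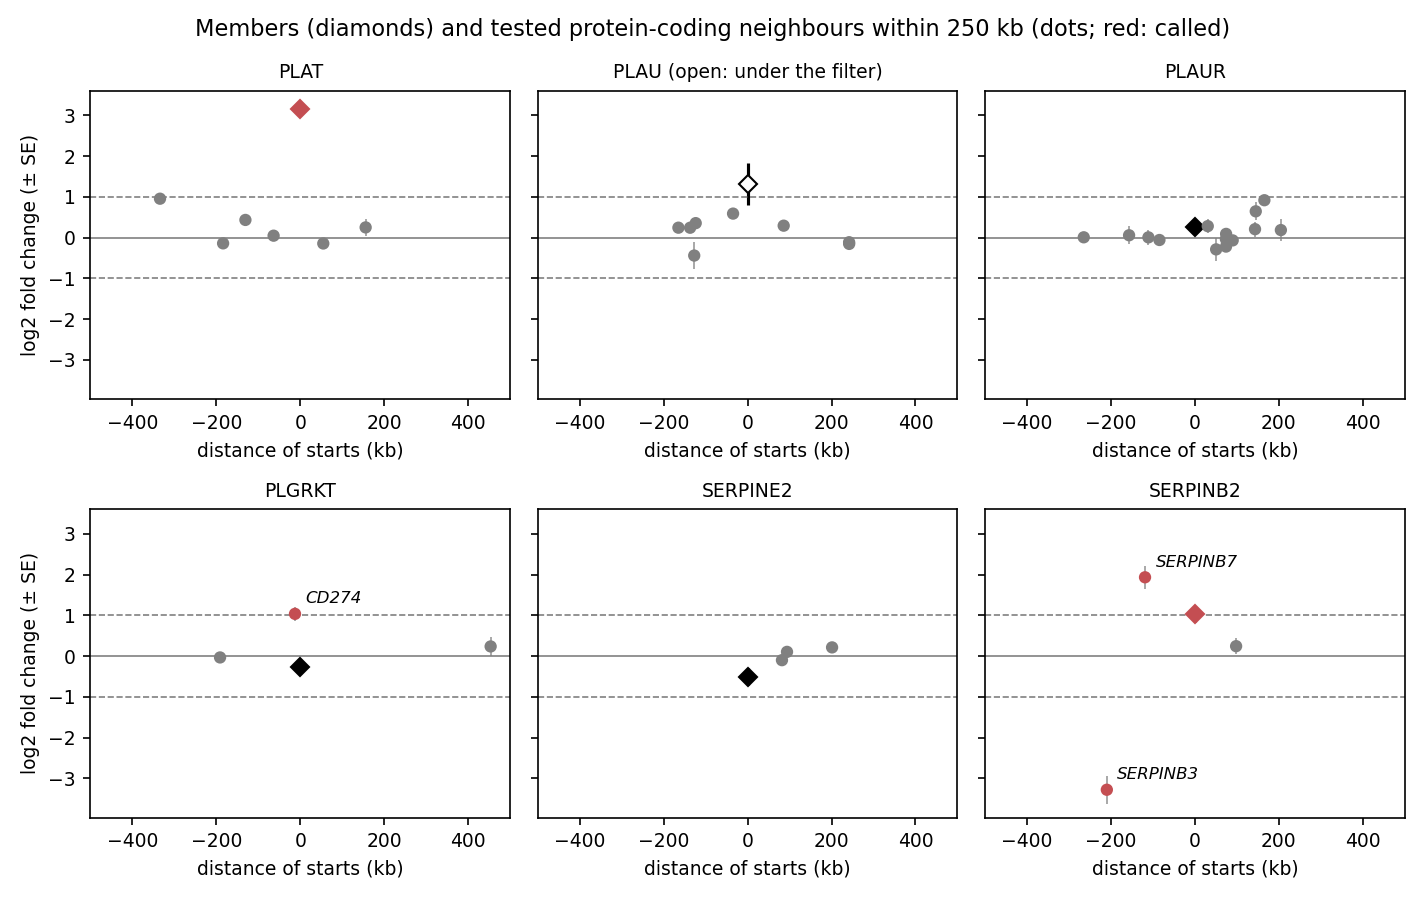
Log2 fold change ± SE of FPKM + 0.1 (vertical axis) of each gene of the set (diamond at 0) and of the tested protein-coding genes within 250 kb of it (dots), against the distance between annotated starts in kb, positive in the direction of transcription of the gene at 0. The dots around PLAT stay under 1 while PLAT is at 3.16, and the red dots are CD274 beside PLGRKT and SERPINB7 and SERPINB3 beside SERPINB2.

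The genes most like each one in pattern were found by Pearson's r of log2(FPKM + 0.1) over the 6 libraries among 11524 other tested protein-coding genes. The libraries fall in 2 groups, so genes that differ between the groups score high. For PLAT they were SCAMP2 (r = 0.9995, 21.1 and 31.8 FPKM), a relative of SCAMP1, MLPH (r = 0.9994, 6.02 and 18.4 FPKM), which encodes the organelle transport adaptor melanophilin, and GRHL3 (r = 0.9993, 5.94 and 19.9 FPKM), an epithelial transcription factor gene. The nearest genes were CALCOCO2 for SERPINB2 (r = 0.999), RFC4 for SERPINE2 (r = 0.998), TMEM109 for PLGRKT (r = 0.989) and RABIF for PLAUR (r = 0.982).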

How the data were processed

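RNA of NCI-N87 cells was sequenced in 3 shNC and 3 shScamp1 libraries, labelled as biological replicates. The authors deposited a table of FPKM per gene and library. Per the submitters' processing notes, HISAT2 2.0.5, featureCounts 1.5.0-p3, DESeq2 1.20.0 and hg38 were used. Start and end of all 58735 genes equalled GENCODE 29. FPKM times gene length gave whole reads for 100% of values (tolerance 0.01 read), and the values already held a scaling between libraries. No column of values was left out.

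Genes that averaged 0.5 FPKM or more were fitted on log2(FPKM + 0.1), which understates changes of low genes, with limma 3.58.1 (lmFit, eBayes with a mean-variance trend) in R 4.3.3, with p-values adjusted by Benjamini-Hochberg over all 15556 fitted genes. The step was tested on simulated data. Summaries used Python 3.11.15 and pandas 2.3.3. The genes described and the lists were chosen with earlier results of these data known. The genes named are the 6 genes, SCAMP1, called genes of the lists, list genes at or near 0, called neighbours within 250 kb and the genes of most similar pattern (3 for PLAT, 1 for each other tested gene). List genes with an adjusted p under 0.05 alone, epithelial markers and other uncalled list genes or neighbours were named after their values were seen. Promoter windows were RefSeq's on GRCh38.p14. Reads are not independent molecules, so the limit given for a count of 0 covers counting error only. Alternatives changed the pseudocount, filter, scaling, model, window, pairing and libraries. List genes that are not named are given only in counts.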

Additional observations from a re-analysis of the deposited data

How the results depend on the processing

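The direction of the log2 fold change of each of the 6 genes was the same in each alternative that fitted it and with each library left out. PLAT was called in all 10 alternatives that were fitted and SERPINB2 in 5 of 9. With a pseudocount of 1 the log2 fold change was 2.41 for PLAT, 0.51 for SERPINB2 and -0.25 for SERPINE2, and the counts of called genes were 248 of all genes (492 as reported), 1 of the pathway lists and 1 of the neighbours; a larger pseudocount shrinks low genes by construction. SERPINB2 also lost its call when libraries were scaled by total reads or, an alternative chosen after seeing the data, by reads outside mitochondrial genes, both at 0.97. With the filter at a mean of 1 FPKM, which leaves out SERPINE2 and SERPINB2, 1 gene of the pathway lists was called. With no fold threshold 2177 genes and 13 pathway genes passed. With voom on genes of at least 5 reads, chosen after seeing the data, 798 genes were called and PLAU had 2.51 and was not called. Same-numbered libraries were not paired, since their deviations from the group means correlated at -0.0351, 0.0325 and 0.0668. With the replicate block 389 genes were called, PLAT stayed called at 3.16 (SE 0.13), and SERPINB2, at 1.03 (SE 0.25), was not. The limma adjusted p of SERPINB2 in that fit was not under 0.05. Of the 6 genes, depth limits PLAU most.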
